A study of Mus musculus with 4 samples.

Results

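The genes described were 8 kallikrein protease genes, Klk5, Klk6, Klk7, Klk8, Klk10, Klk11, Klk13 and Klk14, together with Spink5, which encodes an inhibitor of some of these proteases. They made up 9 of the 22913 genes listed in each library. They were selected by name as kallikreins of skin and an inhibitor of some of them. The set was chosen because Klk6 FPKM was higher in OAD than in YAD, so the values of that comparison are a description. RNA sequencing of dermal white adipose tissue (dWAT), the fat layer around the lower ends of hair follicles (HFs), gave 1 library for each of 4 groups of C57BL/6 mice, and 20 mice were used per group. OTD came from old mice (18 months) and YTD from young mice (2 months) with HFs in telogen, the resting phase, whereas OAD (old) and YAD (young) came from mice of the same ages in anagen, the growth phase, induced by depilation. No treatment other than this hair plucking is stated. Both anagen groups and neither telogen group received it, so anagen and depilation cannot be told apart, and the old mice were slower to enter anagen after it. The age tags of YTD and OAD in the sample labels are the reverse of these, and the ages in the sample titles and the paper were used. According to the paper, subcutaneous fat and the panniculus carnosus muscle were removed by microdissection, and the dWAT was scraped from the bottom of the HFs. The adipocyte marker Adipoq had an FPKM of 280 in YTD, 427 in OTD, 76.5 in YAD and 103 in OAD, so adipocyte transcripts were present in each library. Krt71, a keratin of the inner root sheath of the HF, had an FPKM of 136 in YTD, 79.8 in OTD, 3502 in YAD and 4503 in OAD, so transcripts of HF keratinocytes were also present. Acta1, a skeletal muscle gene, had an FPKM of 27442 in YTD, 17991 in OTD, 2919 in YAD and 4106 in OAD. Muscle transcripts were thus present as well, at higher levels in telogen. In such bulk tissue, fewer cells of a type and less RNA per cell cannot be told apart.

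Tissue kallikreins are secreted serine proteases whose genes form a cluster on mouse chromosome 7. They are made as inactive precursors, and in skin they activate one another and cut the corneodesmosomes that hold the outermost keratinocytes together, so that these are shed. Spink5 encodes LEKTI, a secreted inhibitor with many Kazal-type domains that binds KLK5, KLK7 and KLK14, and its loss causes the severe skin barrier disease Netherton syndrome.

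The coding bases around the active site are shown first because they mark what the 8 proteases share and where KLK7 and KLK10 stand apart. Each run below is the coding sequence of 30 bases from the codon that is 6 before that of the catalytic serine to the codon 3 after it, from GENCODE M21 transcripts on GRCm38, plus strand, written 5′ to 3′. Capitals mark, in order, the codon of the residue at the base of the substrate pocket, the codon 2 before the serine, and the codon of the catalytic serine. In all 8 genes the run crossed the junction between the last 2 exons, so the coordinates span an intron.
Klk5 (chr7:43847563-43850736): GACtcctgccagGGTgatTCCggaggtcct
Klk6 (chr7:43829262-43831506): GATtcctgtcagGGTgatTCTggaggtccc
Klk7 (chr7:43813355-43815314): AACacgtgcaatGGTgacTCAggggggccc
Klk8 (chr7:43802202-43803631): GACacgtgccagGGTgacTCAggaggccct
Klk10 (chr7:43784438-43784887): GACtcttgccagAGTgacTCCggtggcccc
Klk11 (chr7:43778455-43778802): GACtcctgtcagGGTgacTCTggaggcccc
Klk13 (chr7:43723880-43726568): GACtcctgtgagGGTgatTCTgggggccca
Klk14 (chr7:43694459-43694884): GACtcctgtcagGGTgatTCTgggggaccc
The pocket codon was spelled AAC in Klk7 alone, GAT in Klk6 and GAC in the other 6 genes. KLK7 is known as the chymotrypsin-like member of a group that otherwise cuts like trypsin. The codon 2 before the serine was spelled AGT in Klk10 and GGT in the other 7. In spite of this shared core, no stretch of 50 bases of any member's coding sequence occurred in a transcript of another gene, so reads of that length could be told apart between members. The feature length in the files equalled the coding length of an annotated transcript for all 9 genes, and FPKM is thus a level per kilobase of coding sequence.

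Klk7 was the most abundant of the 9 genes in every library, and all except Klk8 had higher FPKM in both anagen libraries than in both telogen libraries. FPKM counts the fragments of a gene per kilobase of its length, scaled to the mapped fragments of the library, and levels between genes are compared on this scale. Klk7, the stratum corneum chymotryptic enzyme, had an FPKM of 6.92 in YTD, 7.32 in OTD, 36.8 in YAD and 76.6 in OAD. It was in this order the gene at rank 7347, 7079, 2069 and 980 of the library from the highest FPKM. Summed over the 8 kallikreins, FPKM was 16.04 in YTD, 15.8 in OTD, 77.6 in YAD and 131.5 in OAD, of which Klk7 made up 43.1%, 46.2%, 47.4% and 58.2%.

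Klk6, a trypsin-like kallikrein also known from the central nervous system, had an FPKM of 3.03 in YTD, 3.41 in OTD, 7.07 in YAD and 24.2 in OAD. OAD stood above the other 3 libraries, and the telogen libraries lay close to each other. Klk5, a trypsin-like kallikrein that activates itself and the precursors of KLK7 and KLK14, had an FPKM of 0.490 in YTD, 0.409 in OTD, 2.97 in YAD and 4.87 in OAD. Spink5 had an FPKM of 0.768 in YTD, 0.678 in OTD, 4.92 in YAD and 10.3 in OAD. Klk5, Klk6, Klk7 and Spink5 thus had the same order of libraries at the top, with OAD highest and YAD next.

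Klk10 had an FPKM of 3.65 in YTD, 1.03 in OTD, 24.7 in YAD and 22.9 in OAD. Both anagen libraries were high and close to each other, and OTD was the lowest. Klk13, expressed mostly in stratified epithelia, had an FPKM of 0.153 in YTD, 0.5004 in OTD, 2.74 in YAD and 1.66 in OAD. Klk14, a trypsin-like kallikrein that LEKTI inhibits, was listed at 0 in OTD and YTD and had 2.44 in YAD and 0.351 in OAD. For Klk13 and Klk14 the library of young mice was the higher one in anagen.

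Klk8, or neuropsin, known from the hippocampus as well as the epidermis, had the opposite order between phases. Its FPKM was 1.75 in YTD, 3.11 in OTD, 0.737 in YAD and 0.788 in OAD, so both telogen libraries were above both anagen libraries. It made up 19.6% of the summed kallikrein FPKM in OTD and 10.9% in YTD but 0.599% in OAD and 0.950% in YAD. Klk11 had an FPKM between 0.0504 in OTD and 0.244 in YAD, which is worth 1 to 4 fragments, and its level was at or near the limit of detection throughout.

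**Figure D1:**
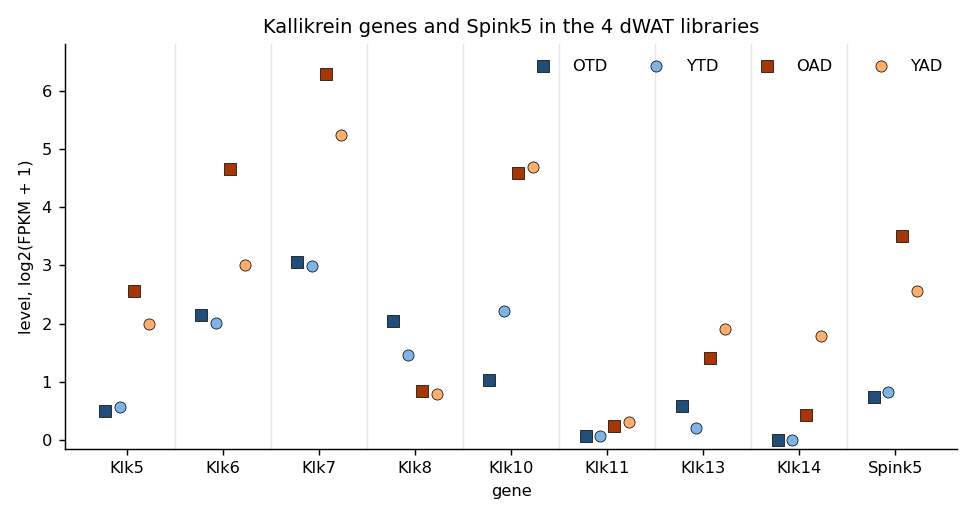
Level of each gene, as log2(FPKM + 1), in OTD and OAD (squares, old) and YTD and YAD (circles, young), 1 point per library and no error bars since each group has 1 library. Klk7 is the highest gene in each library, with an FPKM of 76.6 in OAD, and Klk8 is the only gene whose 2 telogen points lie above its 2 anagen points.

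The files hold no counts, so the fragments behind each value were estimated from the lowest FPKM values of each library, which gather at the value of 1 fragment. The libraries held roughly 20000000 fragments in YTD, 21500000 in OTD, 21800000 in YAD and 23400000 in OAD. At this depth Klk7 rested on about 104, 118, 602 and 1344 fragments in YTD, OTD, YAD and OAD, and Klk6 on about 46, 56, 118 and 431. Spink5, whose feature is longer, rested on about 47, 45, 328 and 738 fragments. Klk10 rested on about 19 fragments in OTD and 449 in OAD, and Klk14 on about 6 in OAD and 40 in YAD. The 95% intervals given beside ratios of FPKM below are exact (Clopper-Pearson) intervals from these estimated fragments. They cover counting error only, not the spread between mice, which 1 library per group does not show. No test between groups was possible and no p-value is given.

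In anagen, Klk6, Klk7, Spink5 and Klk5 were higher in OAD than in YAD, and Klk14 and Klk13 were lower. The Klk6 FPKM of OAD was 3.42 times that of YAD (95% interval 2.78 to 4.22), which is the difference that chose the set. The ratio of OAD to YAD was 2.08 for Klk7 (1.89 to 2.30), 2.10 for Spink5 (1.84 to 2.40) and 1.64 for Klk5 (1.18 to 2.33). In the other direction, Klk14 FPKM was 6.95 times as high in YAD as in OAD (3.01 to 20.6), and Klk13 FPKM was 1.66 times as high in YAD (1.05 to 2.70). The intervals of Klk8, Klk10 and Klk11 held equal levels, and that of Klk10 was the narrowest of these, at 0.814 to 1.06 times the YAD value in OAD. As differences in log2(FPKM + 1), a scale that understates the change of low genes, the values of OAD minus YAD were 1.64 for Klk6, 1.04 for Klk7, 0.94 for Spink5, 0.56 for Klk5, -0.49 for Klk13 and -1.35 for Klk14. By a log2 difference of at least 1, 2 of the 9 genes were higher, Klk6, whose value chose the set, and Klk7 as 1 of the 8 others, where 0.727% of the 17613 genes above 0 in either library were higher by as much. By the same measure 1 of the 9, Klk14, was lower, where 0.454% of those genes were lower. The median over the 9 genes was 0.04 and that over all genes was 0. Rescaled to TPM, where each library has the same sum, the median of expressed genes moved to -0.21, Klk6 was at 1.46, Klk7 at 0.82 and Spink5 at 0.76, so Klk6 was then the only gene higher by at least 1.

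In telogen, Klk6, Klk7, Klk5 and Spink5 each differed between old and young mice by less than the counting error. The ratio of OTD to YTD was 1.13 for Klk6 (95% interval 0.753 to 1.71), 1.06 for Klk7 (0.804 to 1.39), 0.836 for Klk5 (0.277 to 2.41) and 0.883 for Spink5 (0.578 to 1.37). Klk10 was the gene that stood out, with an FPKM 3.53 times as high in YTD as in OTD (2.03 to 6.12). Klk8 went the other way, with an OTD value 1.78 times that of YTD (1.10 to 2.97). Klk13 rested on about 9 fragments in OTD and 3 in YTD, and its ratio of 3.27 had an interval from 0.696 to 16.02. No member was higher by a log2 difference of at least 1 between OTD and YTD, where 1.67% of 17230 genes were, and 1 of the 9, Klk10, was lower, where 1.93% of those genes were. The median over the 9 genes was 0, with Klk14 listed at 0 in both libraries, and that over all genes was -0.03.

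The age comparisons of Klk6, Klk7 and Klk10 are set side by side for both phases, and the difference between phases was not tested, since each rests on 2 single libraries. For Klk6 the log2 difference between old and young was 1.64 in anagen and 0.13 in telogen, and for Klk7 it was 1.04 and 0.07. For Klk10 it was -0.10 in anagen and -1.19 in telogen, so the gene that differed most with age in telogen differed little in anagen.

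Between phases, most of the genes were higher in anagen at both ages. In young mice the ratio of YAD to YTD was 6.75 for Klk10 (95% interval 5.17 to 9.001), 6.41 for Spink5 (4.70 to 8.87), 6.07 for Klk5 (2.85 to 13.3) and 5.31 for Klk7 (4.30 to 6.59). Klk6 had a ratio of 2.34 (1.66 to 3.38), the lowest of the genes with over 40 fragments in YTD. Klk13, at about 3 fragments in YTD, had a ratio of 17.9 (4.93 to 76.5), and Klk14 was at least 12.2-fold higher in YAD, against the FPKM worth 3 fragments in YTD. Klk8 was 2.37 times as high in YTD as in YAD (1.13 to 4.79), at about 13 fragments in YAD. Its log2 difference of YAD minus YTD went from -0.66 to -0.22 after rescaling to TPM. By a log2 difference of at least 1, 7 of the 9 genes were higher in YAD than in YTD, where 16.1% of 17622 genes were, and none of the 9 was lower, where 16.7% were. The median log2 difference was 1.70 over the 9 genes and 0.02 over all genes.

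In old mice Klk10, Spink5, Klk5 and Klk7 had larger ratios than in young mice, and so did Klk6. The ratio of OAD to OTD was 22.2 for Klk10 (95% interval 13.8 to 36.4), 15.2 for Spink5 (11.2 to 20.9), 11.9 for Klk5 (5.67 to 27.6), 10.5 for Klk7 (8.67 to 12.8) and 7.09 for Klk6 (5.35 to 9.53). Klk13 had a ratio of 3.31 (1.53 to 7.79), and Klk14 was at least 1.90-fold higher in OAD, at about 6 fragments. Klk8 was 3.95 times as high in OTD as in OAD (2.21 to 7.89), at about 14 fragments in OAD. Its log2 difference of OAD minus OTD went from -1.20 to -0.83 after rescaling to TPM. By a log2 difference of at least 1, 5 of the 9 genes were higher in OAD than in OTD, where 16.1% of 17712 genes were, and 1 of the 9, Klk8, was lower, where 15.6% were. The median log2 difference was 2.06 over the 9 genes and 0.01 over all genes. The 4 comparisons share libraries in pairs, so they are not independent of each other. Klk11 had intervals that held equal levels in every comparison.

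**Figure D2:**
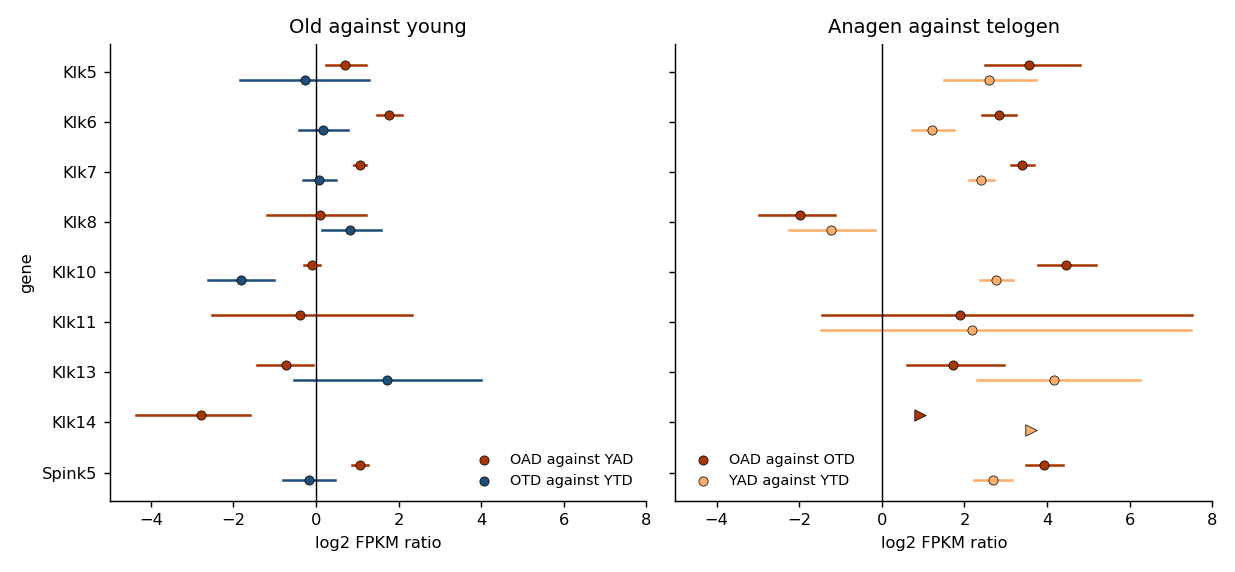
log2 ratio of FPKM for each gene between old and young mice (left, anagen in red and telogen in blue) and between anagen and telogen (right, old in red and young in orange). Bars are 95% intervals of counting error, arrowheads are lower bounds where telogen was listed at 0, and comparisons with both values at or under 3 fragments are left out. Klk6, Klk7, Spink5 and Klk5 lie to the right of 0 in anagen on the left side, while their telogen bars cross 0, and Klk8 alone lies left of 0 on the right side.

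Ratios between genes within 1 library do not depend on how libraries are scaled to each other. Klk7 and Spink5, a protease and its inhibitor, stood in nearly the same ratio in both anagen libraries. Klk7 FPKM was 10.8 times that of Spink5 in OTD (95% interval 7.51 to 15.4), 9.01 times in YTD (6.33 to 13.002), 7.41 times in OAD (6.77 to 8.12) and 7.47 times in YAD (6.52 to 8.58). The intervals of OTD and YTD overlap each other, and so do those of OAD and YAD. The ratio of Klk5 to Spink5 was 0.638 in YTD, 0.604 in OTD, 0.604 in YAD and 0.471 in OAD. Its intervals lay below 1 in YAD (0.446 to 0.799) and OAD (0.381 to 0.584), but held equal levels in YTD (0.286 to 1.37) and OTD (0.251 to 1.32), where Klk5 rested on about 9 and 8 fragments.

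Klk6 and Klk10 did not keep such a ratio. Klk6 FPKM was 5.03 times that of Spink5 in OTD, 3.94 times in YTD, 2.34 times in OAD (2.07 to 2.64) and 1.44 times in YAD (1.16 to 1.78). The ratio was 1.63 times as high in OAD as in YAD. Against Klk7, the level of Klk6 was 0.316 in OAD (0.283 to 0.352) and 0.192 in YAD (0.157 to 0.235). Because the Klk6 difference between OAD and YAD chose the set, its ratios to Spink5 and Klk7 in these libraries are a description. Klk10 FPKM was 1.52 times that of Spink5 in OTD (0.851 to 2.69), 4.76 times in YTD (3.18 to 7.08), 2.22 times in OAD (1.97 to 2.50) and 5.01 times in YAD (4.34 to 5.80). Relative to Spink5, Klk10 was thus lower in old than in young mice in both phases. In anagen, Klk10 itself was at 0.930 times the YAD value in OAD (0.814 to 1.06), while Spink5 was 2.10 times as high in OAD. Klk10 made up 22.8% of the summed kallikrein FPKM in YTD and 31.8% in YAD, but 6.53% in OTD and 17.4% in OAD.

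**Figure D3:**
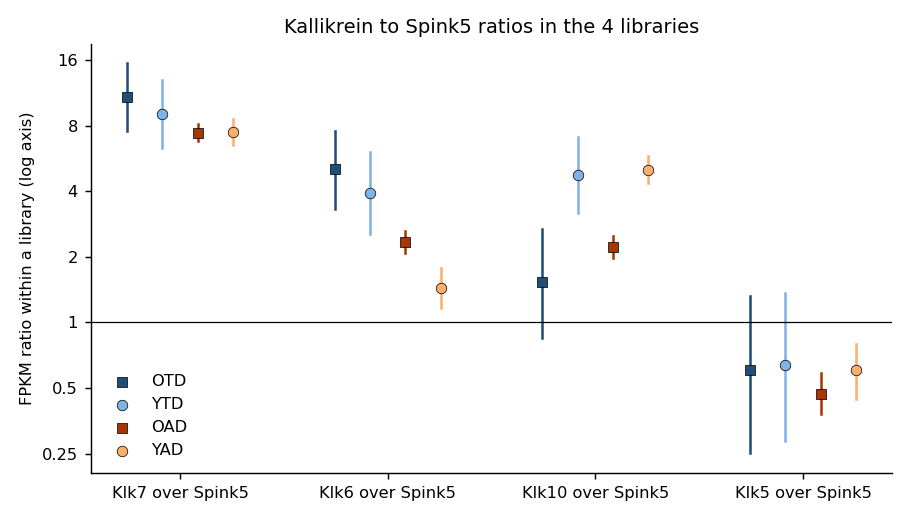
FPKM of 4 kallikreins divided by that of Spink5 within each library, on a log axis, with 95% intervals of counting error, for OTD and OAD (squares, old) and YTD and YAD (circles, young). Klk7 stays between 7.41 and 10.8 times Spink5, while Klk10 lies at 4.76 and 5.01 in the young libraries and at 1.52 and 2.22 in the old ones.

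The ratio to keratins of the same tissue was compared next, with denominators that were chosen after the values were seen. Krt14, the keratin of basal and outer root sheath keratinocytes, had an FPKM of 34.3 in YTD, 27.6 in OTD, 222 in YAD and 453 in OAD. Spink5 per Krt14 was 0.0224 in YTD, 0.0246 in OTD, 0.0221 in YAD and 0.0228 in OAD, so it varied little between libraries. Per Krt5, the partner keratin of Krt14, Spink5 was 0.0219 in YTD, 0.0354 in OTD, 0.0105 in YAD and 0.0167 in OAD, so the old library was higher in both phases. The ratio of OAD to YAD for Klk6 was 1.68 per Krt14, 2.60 per Krt5 and 2.66 per Krt71. For Klk7 it was 1.02 per Krt14, 1.58 per Krt5 and 1.62 per Krt71. Since the Klk6 difference chose the set and the keratins were picked afterwards, these ratios are a description.

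The 8 kallikrein genes lie on the plus strand of mouse chromosome 7 on GRCm38, from Klk14 (start 43690418) through Klk13, Klk11, Klk10, Klk8, Klk7 and Klk6 to Klk5 (end 43851181). They were 8 of the 10 genes listed in these 160.8 kb. The other two, Klk12 and Klk9, had an FPKM of at most 0.114 and 0.123. Klk6 (ENSMUSG00000050063) lies at 43824499 to 43832027, with Klk7 starting 13.1 kb before it and Klk5 starting 17.8 kb after it. These 3 neighbours were all higher in OAD than in YAD, while Klk13 and Klk14 at the far end were lower. Klk8 lies between Klk10 and Klk7 and had the order of phases opposite to both.

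Beyond Klk5, Klk15 was the only Klk gene to reach an FPKM of 1 in a library. Klk4 was listed at 0 in each library. Klk15 was listed at 0 in both telogen libraries and reached 4.27 in YAD and 3.15 in OAD, so it was at least 17.3-fold higher in OAD than in OTD and at least 21.8-fold higher in YAD than in YTD. Of the 26 Klk genes listed between Klk14 and Klk1, 8 reached an FPKM of 1 in a library. At 0 in all 4 libraries were 12 of them, where 4761 of all 22913 genes were. Of the 13 Klk1b genes, which are glandular kallikreins expanded in the mouse, 11 were listed at 0 in all 4 libraries. Klk1b26 and Klk1 were above 0 in YTD only, at 0.502 and 0.296. Of the 5 listed genes of eccrine and salivary glands, Pip and Bpifa2 were listed at 0 in all 4 libraries, Smr3a at no more than 7.87e-06, and Aqp5 between 0.0887 in OTD and 0.532 in OAD. Amy1 was the only one of them to reach an FPKM of 1, with 25.6 in YTD, 40.3 in OTD, 4.69 in YAD and 9.07 in OAD.

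**Figure D4:**
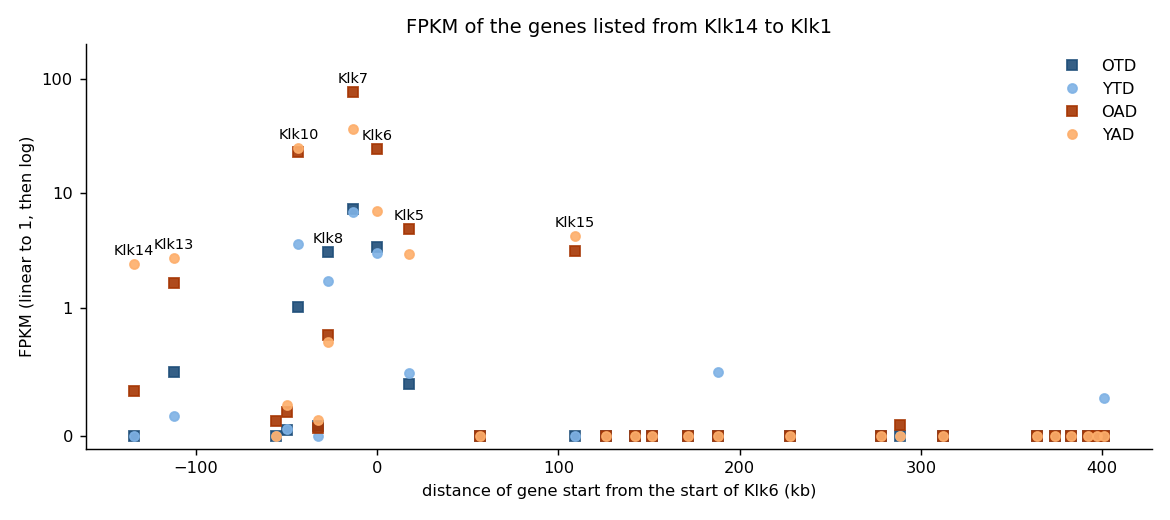
FPKM of the 27 genes listed from Klk14 to Klk1 (axis linear to 1 and logarithmic above) by the distance of the gene start from that of Klk6 in kb, for the 4 libraries. All values of 1 or more lie in the stretch from Klk14 to Klk5 and at Klk15, where the anagen libraries had an FPKM of 3.15 and 4.27 and the telogen libraries were at 0.

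The stretch before the start of Klk6 is shown because the difference of this gene between OAD and YAD chose the set, and that of Klk5 because it is the neighbour that had a match to a motif. Sequences are from the RefSeq promoter table for GRCm38.p6, plus strand, 5′ to 3′, and capitals mark the motif match. For Klk6 the bases after the gene start in the files were left out.
Klk6 (chr7:43824294-43824498): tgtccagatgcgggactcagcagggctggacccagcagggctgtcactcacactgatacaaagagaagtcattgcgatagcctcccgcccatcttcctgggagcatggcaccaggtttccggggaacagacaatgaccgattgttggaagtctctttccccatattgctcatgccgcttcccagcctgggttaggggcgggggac
Klk5 (chr7:43842019-43842268): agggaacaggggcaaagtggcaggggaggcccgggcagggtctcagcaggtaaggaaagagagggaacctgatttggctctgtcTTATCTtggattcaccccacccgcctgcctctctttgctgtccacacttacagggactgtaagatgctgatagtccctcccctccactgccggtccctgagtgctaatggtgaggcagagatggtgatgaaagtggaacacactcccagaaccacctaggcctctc
The table held 10 windows for the 8 kallikreins, 2 each for Klk6 and Klk11, and the 250 bases before each RefSeq start were searched on both strands for 4 motifs. The GATA motif AGATAA was present in 1 of the 10 windows, that of Klk5, on the minus strand at 166 bases before the start, and in 9.99% of all 32851 windows. The TATA box TATAAA, the AP-1 site TGANTCA and the TCF/LEF site CTTTGA were in none of the 10, and in 12.4%, 6.75% and 13.8% of all windows. No 2 of these motifs overlapped in these windows. A match is a description of the letters and says nothing on binding.

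The genes whose pattern over the 4 libraries was nearest to that of Klk6 were Idi2, Dock3, Rnd2, Amtn and Gpx2. Nearness was the root mean square distance between log2(FPKM + 1) values, each gene centred on its own mean, among 13567 genes that reached an FPKM of 1 somewhere, and it ran from 0.15 for Idi2 to 0.30 for Gpx2. Idi2, an isopentenyl diphosphate isomerase, had an FPKM of 0 in YTD, 0.0270 in OTD, 0.620 in YAD and 5.65 in OAD. Gpx2, a glutathione peroxidase of epithelia, had an FPKM of 1.21 in YTD, 2.49 in OTD, 6.77 in YAD and 15.8 in OAD. Spink5 came at rank 27 from Klk6, Klk5 at rank 43, Klk7 at rank 237 and Klk10 at rank 5652. With 4 points per gene, this likeness describes these libraries only.

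The genes nearest to Spink5 were Alox12, Lce1a2, Rptn, Fgf5 and Abca12, at distances from 0.08 to 0.12. Abca12 encodes the lipid transporter of lamellar granules, Rptn the cornified envelope protein repetin and Lce1a2 a late cornified envelope protein. Fgf5, described in the paper as an inhibitor of HF growth, had an FPKM of 0.490 in YTD, 0.506 in OTD, 4.78 in YAD and 10.8 in OAD. Alox12, a lipoxygenase, had an FPKM of 1.55 in YTD, 1.12 in OTD, 7.23 in YAD and 13.5 in OAD, and Rptn 0, 0.0521, 2.59 and 5.08 in the same order. Klk7 came at rank 61 from Spink5, Klk5 at rank 114 and Klk6 at rank 255.

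The membrane-bound proteases that act upstream of the kallikreins had a larger median difference between phases than the kallikreins. St14, which encodes matriptase, had an FPKM of 4.20 in YTD, 1.61 in OTD, 121 in YAD and 129 in OAD, and Prss8, which encodes prostasin, 1.14, 0.251, 22.6 and 32.0. Tmprss13 had 0.934, 0.288, 10.1 and 11.7. Of the 5 listed activators 3 were above 0, and all 3 were higher in anagen at both ages by a log2 difference of at least 1. Their median was 3.46 for YAD minus YTD and 4.72 for OAD minus OTD. Between ages their median was 0.20 in anagen, or -0.02 after rescaling to TPM, and -0.78 in telogen, with all 3 lower in OTD and none past 1 in size.

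Most of the substrates followed the same order of phases. Cdsn, the corneodesmosin that kallikreins cut in shedding, had an FPKM of 5.52 in YTD, 3.85 in OTD, 112 in YAD and 188 in OAD. Dsg1a, a desmoglein, had 3.18, 1.76, 53.7 and 60.4, and Dsc1, a desmocollin, had 2.64, 1.09, 50.2 and 67.0. F2rl1, the receptor PAR2 that KLK5 can cleave, had 2.34, 2.85, 16.1 and 18.8. Of the 7 listed substrates 5 were higher by at least 1 in log2 in YAD than in YTD and 5 in OAD than in OTD. Camp, which encodes the cathelicidin precursor that kallikreins process, went the other way in young mice, with an FPKM of 2.996 in YTD and 0.893 in YAD, against 0 in OTD and 0.413 in OAD. In anagen 5 of 7 were higher in OAD than in YAD, none by as much as 1, with a median of 0.17, but 2 of 7 and -0.06 after rescaling to TPM.

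Among the other inhibitors, Spint1 and Spint2, which inhibit matriptase and prostasin, were high in anagen and not higher in old mice there. Spint1 FPKM was 2.96 in YTD, 1.77 in OTD, 114 in YAD and 94.2 in OAD, and Spint2 FPKM was 18.8, 24.5, 188 and 187. Cst6, which encodes the cysteine protease inhibitor cystatin E/M, had 9.35, 13.1, 23.7 and 46.0, so it was 1.94 times as high in OAD as in YAD. Serpina12, which encodes vaspin, an inhibitor of KLK7, had an FPKM of 0.202 in YTD, 0.0319 in OTD, 2.58 in YAD and 1.62 in OAD. Slpi, an inhibitor of KLK7 in skin, had 2.46, 2.95, 1.95 and 3.38. Of the 6 listed, 2 were higher and 3 lower in OAD than in YAD, with a median of -0.01 over the 5 above 0.

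Of 11 other Spink genes, 6 were listed at 0 throughout. Spink6, an inhibitor of several skin kallikreins, was higher in YAD, at 5.83, than in OAD, at 2.34, and was at 0 in OTD and 0.187 in YTD. Its YAD value was 2.49 times that of OAD (95% interval 1.397 to 4.74), a direction opposite to that of Spink5. Spink12 stood at 1.20 in YAD and 3.17 in OAD, and Spink2 at 0.234 and 1.85, with OAD to YAD ratios of 2.64 (1.22 to 7.21) and 7.93 (1.49 to 442) that rest on few fragments.

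Lists of marker genes of cells that could lie in the dissected layer were set beside these values, and their part in the results was not tested. The suprabasal markers of interfollicular epidermis were low, with an FPKM of 0.126 (OAD) and 0.0597 (YAD) for Krt1, 0.108 and 0.0486 for Flg2, 0.204 and 2.98 for Krt2 and 2.92 and 6.94 for Lor. Other genes of the cornified layer were high, such as Ivl (involucrin) at 136 in OAD and 91.1 in YAD and Asprv1 at 305 and 207. The summed FPKM of 8 inner root sheath genes was 403 in YTD, 248.9 in OTD, 12451 in YAD and 18881 in OAD, and all 8 were higher in OAD than in YAD, with a median log2 difference of 0.72. In telogen all 8 were lower in OTD than in YTD, with a median of -0.69, and 7 of 8 were when libraries were rescaled by the median of ratios or to TPM without mitochondrial genes. The kallikreins of anagen were thus measured beside a large amount of HF keratin in both ages.

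The lists were chosen with earlier results of these data known, so their order is a description. The list with the largest median difference between OAD and YAD was that of keratinocyte genes known from wounded or stressed skin. All 8 were higher in OAD under each scaling tried, 4 of them by at least 1 in log2 (3 after rescaling to TPM), with a median of 1.05 against 0 over all genes. Krt6a FPKM was 11.5 in YTD, 13.01 in OTD, 62.2 in YAD and 157 in OAD, and Krt16 FPKM was 1.46, 2.50, 38.9 and 66.5. Krt17, the most abundant of the list in anagen, was at 39.6, 24.5, 826 and 1146. It had the smallest log2 difference of OAD minus YAD on the list, at 0.47. S100a9, an antimicrobial protein of neutrophils and stressed keratinocytes, was at 0.656, 11.7, 1.26 and 11.2, so old mice were higher in both phases. The infundibulum list, with genes of the upper HF, had all 6 genes higher in OAD (5 after rescaling to TPM), with a median of 0.65. Among them Krt79 was at 32.3 in OAD and 13.2 in YAD. In telogen 3 of the 6 were higher and 3 lower in OTD than in YTD, with Krt79 higher, at 6.47 against 2.22. In OAD against YAD the 7 basal keratinocyte genes had a median of 0.06, or -0.16 after rescaling to TPM. The 17 granular and cornified layer genes in the files had one of 0.21, and the 12 of them with an FPKM of at least 1 in OAD or YAD had one of 0.54.

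Genes of fat and muscle and most of those of nerve were lower in anagen than in telogen, as Klk8 was and the other kallikreins were not, and their part in the Klk8 values was not tested. The 8 adipocyte genes were all lower in anagen than in telogen, with a median log2 difference of -1.39 in young and -1.52 in old mice. After rescaling to TPM all 8 were still lower, but the medians were -0.61 and -0.91, and those lower by at least 1 went from 7 to 2 in young and from 6 to 4 in old mice. The 8 skeletal muscle genes were lower as well, with medians of -3.09 and -1.99. Of 6 genes of oligodendrocytes and Schwann cells 4 were lower in each of YAD and OAD than in telogen by at least 1, such as Mbp, with an FPKM of 151 in YTD, 208 in OTD, 22.4 in YAD and 28.1 in OAD. Sox10, a transcription factor of these cells, was higher in YAD, at 8.43, than in YTD, at 4.35, and was at 8.55 in OTD and 5.02 in OAD. Transcripts of the mitochondrial genome took 44.7% of all FPKM in YTD, 52.7% in OTD, 14.4% in YAD and 18.3% in OAD. In OAD against YAD all 8 adipocyte genes were higher (5 after rescaling to TPM), with a median of 0.36, and the muscle genes had a median of 0.28.

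**Figure D5:**
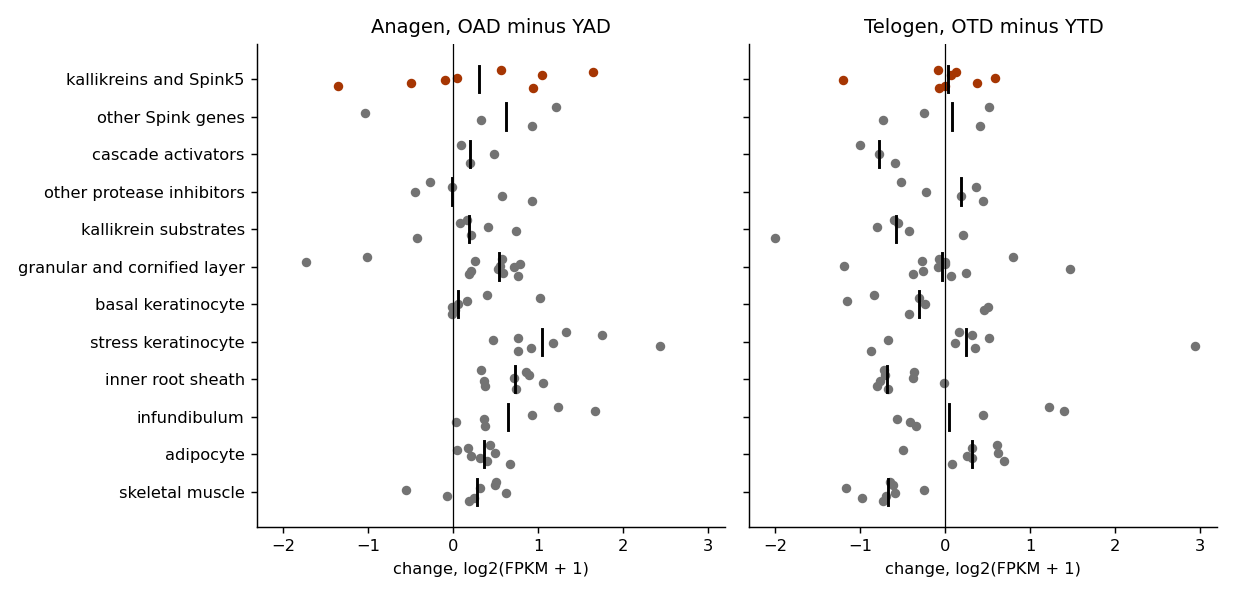
Difference in log2(FPKM + 1) between old and young mice in anagen (left) and telogen (right) for genes that reached an FPKM of 1 somewhere, 1 point per gene, with the median of the plotted genes of each list as a bar and 8 of the 9 kallikreins and Spink5, without Klk11, in red. The members spread from -1.35 to 1.64 in anagen, while all 8 stress keratinocyte genes lie above 0.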

How the data were processed

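dWAT of C57BL/6 mice was sequenced with 1 library per group (YTD, OTD, YAD and OAD), and the sample titles gave the groups. The authors deposited FPKM per gene with each gene's position on GRCm38 and a feature length, and the submitters' processing notes name TopHat2 and bcl2fastq. The tool that computed FPKM, its annotation and any scaling between libraries are not given in the sources used here. Mitochondrial and muscle genes take a large and uneven share of the libraries, so each FPKM depends on what else was sequenced.

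FPKM were used as deposited. Of 22166 Ensembl identifiers, 21750 were matched to a symbol. A change is a difference in log2(FPKM + 1), and a gene was called at a size of at least 1. To estimate depth, the smallest nonzero products of FPKM and length were read among features between 2000 and 4000 bp long, since these mark single fragments. These depths are rough, and 3 fragments were taken as the floor. With 1 library per group no test was made, which was also the planned design. Intervals are 95% exact (Clopper-Pearson) and cover counting error only. The steps were tested on simulated data. The members and the gene lists were chosen with earlier results of these data known.

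All 9 members were named, and 5 genes by nearness to Klk6 and to Spink5. Other lists were to be named by up to 8 genes of highest mean level. This was not kept to throughout, since low genes such as Krt1, Flg2, Pip and Bpifa2 were named and Sbsn and Tgm3 were not. Alternatives were pseudocounts of 0.1 and 0.01, thresholds of 0.58 and 1.5, a filter at FPKM 1, median of ratios over 11181 genes, TPM with all genes, without mitochondrial genes and without muscle genes too, and the set without Klk6. Sequences came from GENCODE M21 and the RefSeq promoter table, 8 of 9 members matching the latter. A table of proteins was not used here. Computations used Python 3.11.15, numpy 2.4.6, pandas 2.3.3, scipy 1.17.1 and matplotlib 3.10.9.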

Additional observations from a re-analysis of the deposited data

Results flagged for a closer look

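In 3 genes the old libraries were above the young ones in one phase and below them in the other, and this difference was not tested. For Spink5 the log2 difference between old and young was 0.94 in anagen and -0.08 in telogen, 1.01 apart, and the telogen value was within the counting error. For Klk5 it was 0.56 in anagen and -0.08 in telogen, 0.644 apart, and the telogen value rested on about 8 and 9 fragments. For Klk13 it was -0.49 in anagen and 0.38 in telogen, a difference of -0.874, and the telogen value rested on about 9 and 3 fragments.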

How the results depend on the processing

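No paired analysis was possible because each group has 1 library, and for the same reason no library could be left out. The medians of the comparisons between phases, the only ones of at least 1 in size, kept their sign under the alternatives. The median of OAD against YAD was 0.04 as deposited and -0.07 under TPM. It was -0.04 under TPM without mitochondrial genes and also without mitochondrial and muscle genes. Of the medians and counts, 80 were called unchanged and 16 moved. A count was called unchanged if equal or, with both above 0, within 1.5-fold. A median was called unchanged if its shift was within the reach of the counting interval of its middle gene. For OTD against YTD that gene was Klk14, at 0 in both libraries, so this median could not be called moved. In YAD against YTD, counts higher of 5 and 8 against 7, and a median of 2.58 against 1.70, were thus called unchanged. For OAD against YAD, the count of members at least 1 higher was 1 under TPM, TPM without mitochondrial genes, TPM without mitochondrial and muscle genes and a threshold of 1.5, and the count lower was 0 at 1.5. For OTD against YTD, the count higher was 1 with pseudocounts of 0.1 and 0.01 and at a threshold of 0.58, and the count lower was 0 at 1.5. For YAD against YTD, the count lower was 1 with both of these pseudocounts and at 0.58. For OAD against OTD, the median was 3.39 and the count higher 8 with a pseudocount of 0.01, and the count lower was 0 under TPM and at 1.5. Without Klk6, the median of OAD against YAD was -0.01. Scaling to TPM moved the median of expressed genes to -0.21 in OAD against YAD, 0.76 in YAD against YTD and 0.58 in OAD against OTD, and relative to these the members' medians were 0.14, 1.38 and 1.82. Of 216 values of single members, 195 shifted by no more than the reach of their counting interval around its centre. The other 21 moved beyond it. For Klk14, listed at 0 in telogen, this interval had no upper end in comparisons with a telogen library, so those values could not be called moved. With a pseudocount of 0.01, its YAD minus YTD difference went from 1.78 to 7.94 and its OAD minus OTD difference from 0.434 to 5.17. Among the 216 values, 6 changed sign, all of them with a main value within counting error (Klk8 in OAD against YAD, Klk11 and Spink5 in OTD against YTD). Depth limits Klk11, Klk14, the telogen values of Klk5 and Klk13 and the anagen values of Klk8.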
